A study of Homo sapiens with 18 samples.

Results

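The comparison described here was THP1 after 8 h of IACS against THP1 in DMSO, which took 6 of the 18 RNA sequencing libraries of the study. THP1, written THP-1 in the sample labels, is a human AML (acute myeloid leukemia) cell line of monocytic type that carries a *KMT2A* rearrangement. One group held 3 libraries of cells given DMSO, the solvent, and the other held 3 libraries of cells given 50 nM IACS-010759 (IACS), an inhibitor of mitochondrial complex I, for 8 h. The labels give no time for the DMSO cells, which also serve the 24 h group, and they describe the replicates of each group as independent. The other 12 libraries hold THP1 after 24 h of IACS and MV4-11, a further AML line, under the same 3 conditions, and are used below only beside the THP1 values at 8 h. The labels name no knockout or transgene in either line.

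Complex I (NADH dehydrogenase) passes electrons from NADH to the respiratory chain, and part of its subunits are encoded by the mitochondrial genome. When respiration is blocked, cells shift to glycolysis, and mitochondrial stress can be signalled to the cytosol through OMA1, DELE1 and the kinase HRI (*EIF2AK1*), which phosphorylates eIF2α and so starts the integrated stress response (ISR), in which the transcription factor ATF4 is translated and raises genes of amino acid supply. A separate sensor, the transcription factor MondoA (*MLXIP*) with its partner MLX, follows glucose phosphates and drives the α-arrestins *TXNIP* and *ARRDC4*, which restrain glucose uptake.

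The deposited values are TPM, transcript levels corrected for gene length and scaled to the same total in each library. They were rescaled here by the median of ratios, which gave library factors from 0.821 to 1.18, and fold changes were taken on the log2(TPM + 1) scale, which understates changes of genes near or below 1 TPM. Averaged over the 6 libraries, 13893 genes reached 1 TPM. A gene was called where limma's test, adjusted by Benjamini-Hochberg over all 13893 genes, gave p under 0.05 and the levels on this scale differed by more than 1.5-fold. The reads behind the TPM could be recovered as whole numbers for 99.9% of these genes and came to between 20.4 × 10⁶ and 25.4 × 10⁶ per library. From 46.3% to 60.0% of all TPM fell on 5 abundant noncoding RNAs, a share that did not separate the groups (two-sided exact permutation test, p = 0.50, n = 3 against 3). The libraries numbered 3 resembled each other: across genes, DMSO replicate 3 was closer to IACS replicate 3 (Spearman 0.992) than to DMSO replicates 1 and 2 (0.984 and 0.987). Among the treated libraries replicate 3 did not stand apart alone. IACS replicate 1 was about as close to IACS replicate 3 (0.9902) as to IACS replicate 2 (0.9906), and the loosest pair was 2 and 3 (0.986). Values without both libraries numbered 3 are therefore given below where results rest on them. Monocytic and granulocytic markers were high in all 6 libraries, with *LYZ* (lysozyme) at 790 rescaled TPM or more, *CTSG* at 931 or more and *CEBPA* at 210 or more, while *CD14* and *MPO* were low, at most 0.478 and 2.10. The *KMT2A*-fusion target *HOXA9* ranged from 22.2 to 28.1 and *MEIS1* did not exceed 0.026. The defining markers *CD3D*, *MS4A1*, *HBB* and *COL1A2* of T, B, erythroid and fibroblast cells were at 0 in every library.

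After 8 h of IACS, 3 genes were lower and none was higher. The genes called lower were *TXNIP*, *ARRDC4* and *MT-ATP8*, which is 0.0216% of those tested, against 0% called higher. Before adjustment, p was under 0.05 for 523 genes with higher levels (3.76%) and for 534 with lower levels (3.84%). With the fold threshold added, 32 genes were higher (0.23%) and 44 were lower (0.317%). limma's voom, a model for counts, called the same number higher, 0, on the recovered reads and called *TXNIP* and *ARRDC4* lower. Kruskal-Wallis with Dunn tests at unadjusted p, with the same fold, gave 1 gene higher and 5 lower. These tests ranked all 9 THP1 libraries, those at 24 h included. A gene whose 24 h libraries all lay beyond its 8 h libraries, on the side away from DMSO, could therefore not pass. The median log2 fold change of all genes was 0.00070 and 50.2% of them lay above 0. Of the 76 genes past the fold at unadjusted p, 21 were protein-coding in GENCODE release 44, 27.6% against 80.3% of all genes tested, and their median level was 2.29 TPM against 11.4 TPM. Of the rest, 18 belonged to another class and 37 had names that were not matched in that release.

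**Figure D1:**
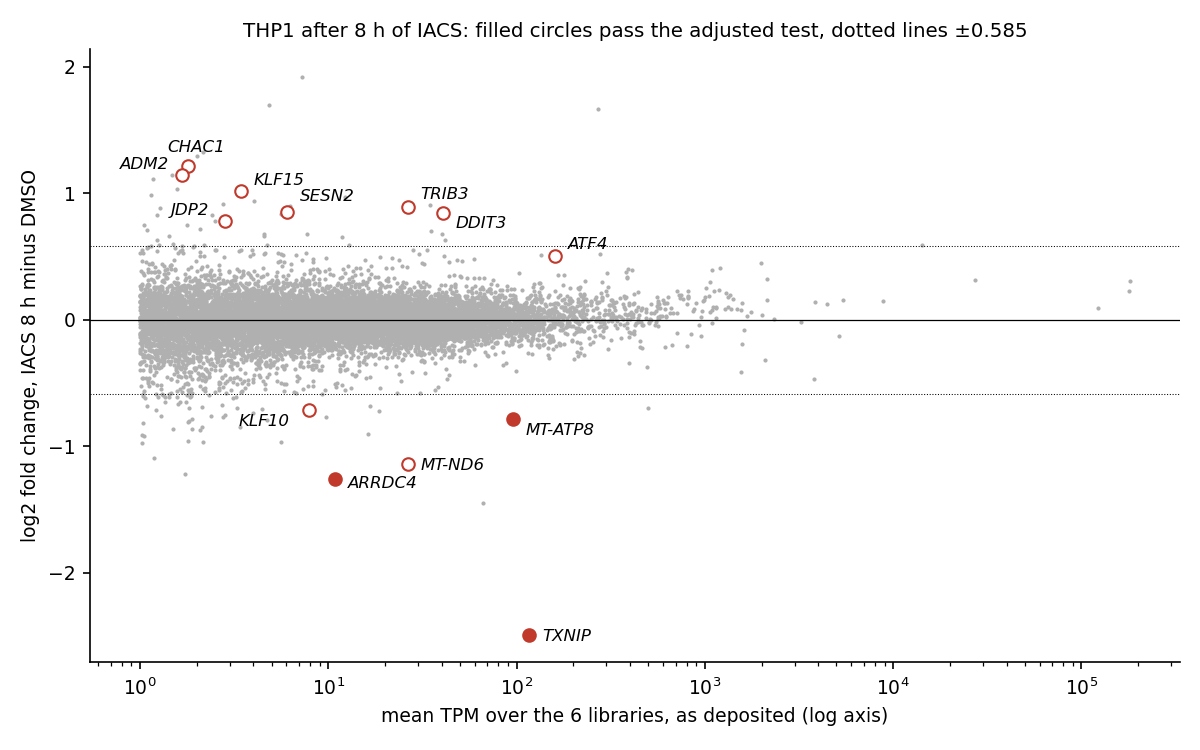
Each point is 1 of 13893 genes in THP1, with its mean TPM over the 6 libraries as deposited on a log axis and its log2 fold change (IACS 8 h minus DMSO) on the other axis. Filled circles are the 3 called genes, open circles are named genes that were not called, and *TXNIP* at -2.49 lies below every other gene.

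*TXNIP* encodes an α-arrestin that binds thioredoxin and takes glucose transporters off the cell surface. It stood at 166, 169 and 252 rescaled TPM in DMSO and at 31.3, 28.6 and 41.5 after 8 h of IACS, so the lowest DMSO library lay far above the highest treated one. The mean went from 196 ± 48.5 to 33.8 ± 6.81 (SD, n = 3), 5.79 times lower, and the log2 fold change was -2.49 (SE 0.19, adjusted p = 0.0117 by limma). The reads behind these values numbered 6178, 6463 and 9259 in DMSO against 1366, 1074 and 1730. Both libraries numbered 3 held the highest level of their group, and without them the log2 fold change was -2.45 (adjusted p = 0.000234).

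*ARRDC4*, an α-arrestin related to *TXNIP* that also acts on glucose transporters, stood at 15.8, 14.1 and 16.3 rescaled TPM in DMSO and at 6.26, 5.62 and 5.63 after IACS. The 3 treated libraries were tightly grouped and 2.64 times lower on average, and the log2 fold change was -1.26 (SE 0.079, adjusted p = 0.00690 by limma), or -1.21 without the libraries numbered 3 (adjusted p = 0.0289). The calls needed most of the libraries. Leaving out DMSO replicate 1, IACS replicate 1 or IACS replicate 2 left no gene called lower, with *ARRDC4* at adjusted p = 0.0684, 0.0592 and 0.0542, and leaving out DMSO replicate 2 left *ARRDC4* alone. The log2 fold change lay between -1.32 and -1.23 for *ARRDC4* and between -2.64 and -2.30 for *TXNIP* whichever single library was left out.

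The other family members were not called. *ARRDC3*, a paralog that acts on adrenergic receptors and other membrane proteins, measured 32.7, 29.4 and 29.8 rescaled TPM in DMSO and 35.6, 33.5 and 30.0 after IACS, overlapping groups with a log2 fold change of 0.10 (SE 0.080, adjusted p = 0.812), which turns to -0.03 where the deposited TPM are not rescaled. *ARRDC1* measured 40.9, 44.8 and 41.0 against 33.9, 42.5 and 38.6. Of the 7 genes tested in the list of α-arrestins and MondoA, 2 were called lower, none reached an unadjusted p under 0.05 in the higher direction, and the median log2 fold change was -0.04. *MLXIP*, which encodes MondoA itself, averaged 12.7 ± 0.87 in DMSO and 12.5 ± 1.69 after IACS. *KLF10*, a zinc finger repressor, was not called, at 9.18, 8.97 and 11.8 rescaled TPM in DMSO and 5.55, 5.02 and 6.53 after IACS (log2 fold change -0.71, SE 0.13, adjusted p = 0.398), with no overlap between groups.

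The promoters of the pair of called arrestin genes are shown because both carry the letters CACG in repeats or palindromes that E-box factors such as MondoA:MLX are known to read. The windows are those of RefSeq on GRCh38.p14, 250 bases before to 50 after each start, and capitals mark the motif. The tandem motif, 2 boxes CACGNG with 5 bases between them, was written with the *TXNIP* window in view and was found on either strand in 20 of 35116 windows (0.057%), and the E-box CACGTG in 2548 (7.26%).
TXNIP, chr1:145996629-145996689, minus strand: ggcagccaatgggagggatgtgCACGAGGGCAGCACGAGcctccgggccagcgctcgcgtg
ARRDC4, chr15:97960471-97960520, plus strand: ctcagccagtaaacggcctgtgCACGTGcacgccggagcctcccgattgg
The motif ended 71 bases before the start in *TXNIP* (gene at chr1:145992435-145996579) and 204 bases before it in *ARRDC4*, and both stretches lie outside annotated genes. The pair did not share a motif: the windows of *TXNIP* held no CACGTG, and that of *ARRDC4* did not hold the tandem motif. The windows of *ARRDC3* held neither motif, while CACGTG was also found in windows of *ATF4*, *FHL2* and *KLF15*, whose log2 fold changes lay above 0. A match describes these letters only, and binding was not measured here.

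**Figure D2:**
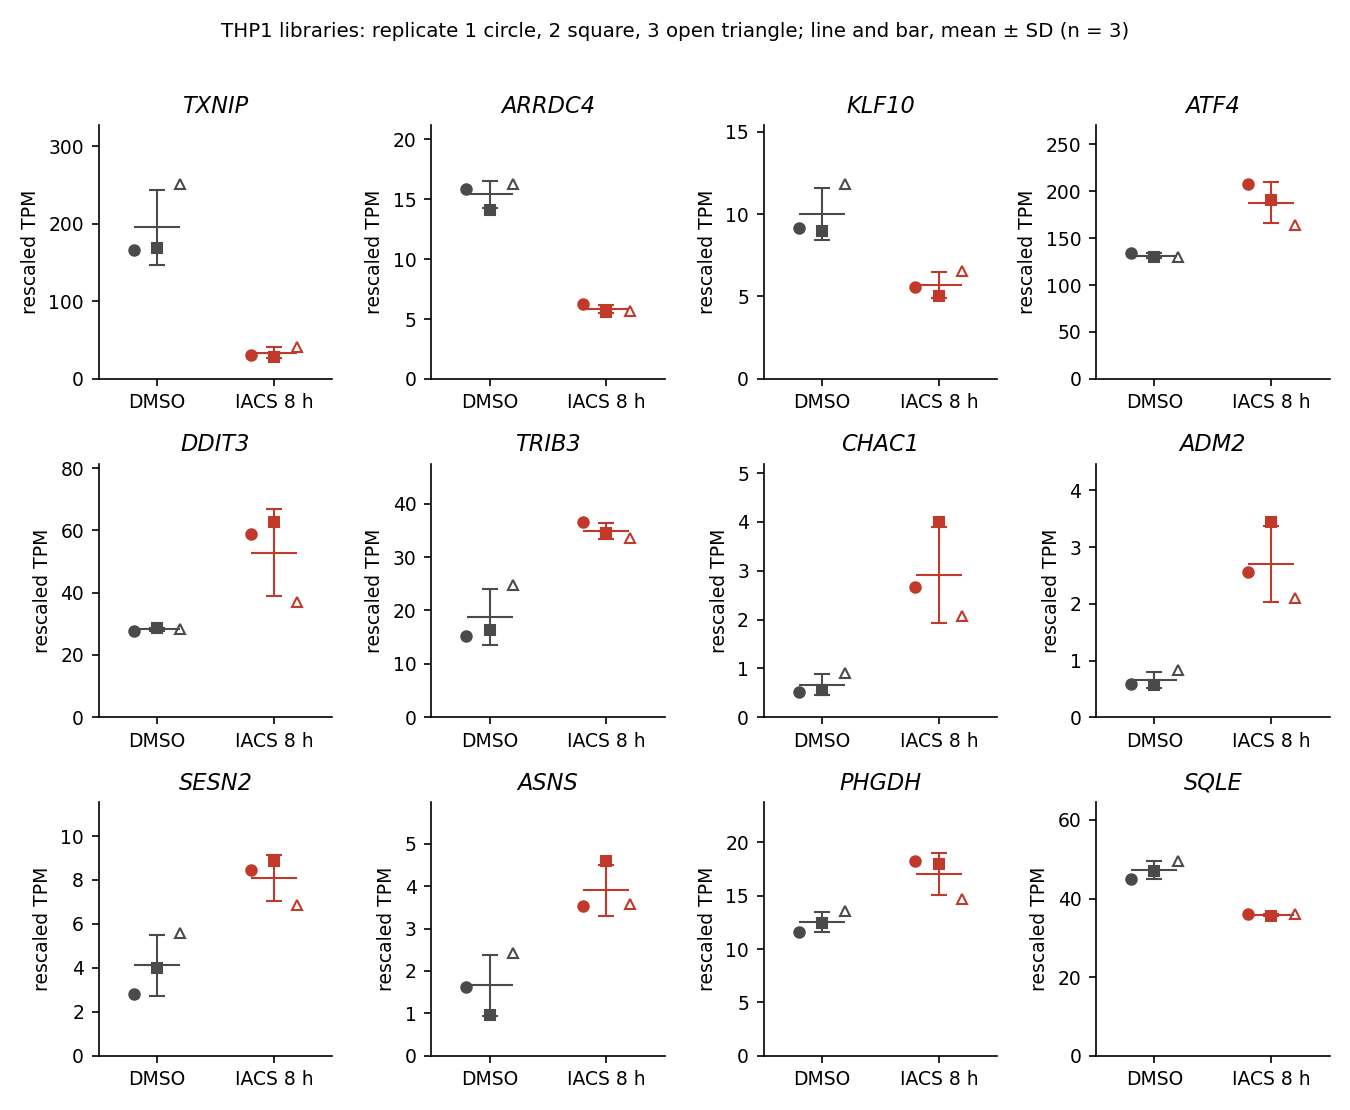
Rescaled TPM of 12 genes in the 6 THP1 libraries, with DMSO in grey and IACS 8 h in red. Symbols stand for replicates, lines and bars for mean ± SD (n = 3). *TXNIP*, *ARRDC4*, *KLF10* and *SQLE* are lower in all 3 treated libraries, and the other 8 genes are higher in all 3, and for *TRIB3*, *CHAC1*, *ADM2*, *SESN2* and *PHGDH* DMSO replicate 3 is the highest of its group and IACS replicate 3 the lowest.

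The genes of the ISR lay on the other side of 0, and none was called. All 12 transcription factors and feedback genes of the ISR tested had a log2 fold change above 0, with a median of 0.49, or 0.37 in the TPM as deposited. At unadjusted p under 0.05, 8 of them were higher, against 3.76% of all genes, without any passing the adjusted test. In 8 of the 12 every treated library exceeded every DMSO library, against 6.64% of all genes in that direction and 6.55% in the other. Without the libraries numbered 3 the median was 0.69. *ATF4*, the factor at the center of the response, stood at 134, 130 and 130 rescaled TPM in DMSO and at 208, 191 and 164 after IACS, a log2 fold change of 0.51 (SE 0.092, adjusted p = 0.398). The 3 DMSO libraries were nearly identical and the treated ones spread, with replicate 3 lowest.

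*DDIT3* (CHOP), a factor linked to cell death under lasting stress, averaged 28.3 ± 0.46 rescaled TPM in DMSO and 52.8 ± 13.9 after IACS, with the treated libraries at 58.9, 62.6 and 36.9, and was not called (log2 fold change 0.84, SE 0.18, adjusted p = 0.491). Its DMSO libraries differed by less than 1 TPM, so the spread came from IACS replicate 3. Without IACS replicate 3 the log2 fold change was 1.08 and *DDIT3* was called (adjusted p = 0.0182). It was not called on leaving out any other single library (adjusted p from 0.300 to 0.999). *TRIB3*, a pseudokinase that restrains ATF4, showed the opposite: its treated libraries were even, at 36.5, 34.6 and 33.5, while DMSO replicate 3, at 24.7, lay above replicates 1 and 2, at 15.1 and 16.4. Its log2 fold change was 0.89 (SE 0.16, adjusted p = 0.398), and 1.10 without DMSO replicate 3, where it was called (adjusted p = 0.00756). Leaving out any other single library did not call *TRIB3* (adjusted p from 0.516 to 0.999). With both libraries numbered 3 left out, a setting added after the data were seen, *DDIT3* and *TRIB3* were the ones called higher (adjusted p = 0.0139 for each). Weighting all 6 libraries by quality called *TRIB3* and *JDP2* higher (adjusted p = 0.0312 for each), *CHAC1* (0.0475) and *ADM2* (0.0312), and did not call *DDIT3* (0.0691). This weighted fit did not fully converge, so its calls are uncertain.

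*CHAC1*, which degrades glutathione, had the highest log2 fold change of the list at 1.21 (SE 0.20, adjusted p = 0.398). It was barely transcribed in DMSO, at 0.522, 0.555 and 0.913 rescaled TPM, and stood at 2.68, 3.99 and 2.08 after IACS, a mean 4.40 times higher. Only 11, 12 and 19 reads lay behind the DMSO values, against 66, 85 and 49. *SESN2*, a leucine sensor that holds back mTORC1, went from 2.81, 3.98 and 5.58 to 8.45, 8.88 and 6.88, and *JDP2*, an AP-1 repressor, from 1.82, 1.56 and 2.20 to 3.95, 3.73 and 3.99. *PPP1R15A* (GADD34), which brings the eIF2α phosphatase to its substrate, went from 12.6, 12.4 and 14.1 to 20.1, 18.1 and 17.1. In each of these 3 genes the groups did not overlap and adjusted p lay between 0.275 and 0.491. *CEBPB* had a log2 fold change of 0.37, *ATF5* one of 0.26 and *DDIT4* one of 0.48, the last with a DMSO range from 3.51 to 12.7 that held all 3 treated values. *ADM2*, a secreted peptide of the adrenomedullin family and a known ATF4 target, went from 0.590, 0.575 and 0.827 to 2.56, 3.44 and 2.11 rescaled TPM, 4.07 times higher in the mean (log2 fold change 1.14, SE 0.16, adjusted p = 0.275).

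The sensors themselves lay near 0. *EIF2AK1* ranged from 34.6 to 39.8 rescaled TPM in DMSO and from 38.0 to 39.2 after IACS, and *DELE1* from 19.8 to 21.0 and from 20.6 to 22.1. Their log2 fold changes, 0.04 and 0.06, turn to -0.09 and -0.07 in the TPM as deposited. *OMA1* went from 8.09, 7.56 and 8.11 to 9.46, 8.99 and 8.98 (log2 fold change 0.19, SE 0.06, adjusted p = 0.651), and it was the only one of the 16 sensors and eIF2 subunits tested that had an unadjusted p under 0.05. The median of these 16 genes was 0.01.

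Composite elements that C/EBP and ATF4 dimers are known to bind were looked for in the same RefSeq windows, as TGATGNAAN on either strand, which 1268 of 35116 windows hold (3.61%). They are shown for 3 ISR genes whose windows hold one before the start, with the motif in capitals. Of the ISR genes described here, only these 3 and those named at the end of this paragraph were looked up. The windows of *TXNIP*, *ARRDC4*, *ARRDC3*, *KLF15* and *FHL2* were searched as well, and among them only 1 window, of *FHL2*, held these letters.
CHAC1, chr15:40953251-40953279, plus strand, motif on the other strand: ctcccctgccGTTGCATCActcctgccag
ASNS, chr7:97872458-97872486, minus strand: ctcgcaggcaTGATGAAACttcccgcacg
JDP2, chr14:75427984-75428021, plus strand: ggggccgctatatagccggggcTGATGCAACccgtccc
The motif ended 201 bases before the start in *CHAC1*, 59 in *ASNS* and 7 in *JDP2*. The first 2 stretches overlap exons of other annotated transcripts and the third an intron. The windows of *TRIB3*, *DDIT3*, *SESN2*, *ADM2*, *ATF4* and *PPP1R15A* do not hold these letters.

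Genes of amino acid supply, which ATF4 is known to drive, followed the same direction. All 9 amino acid transporters tested had a log2 fold change above 0 (median 0.23, or 0.098 in the TPM as deposited). Of these, 7 had an unadjusted p under 0.05, against 3.76% of all genes in that direction. *SLC7A5* (LAT1), which carries leucine, went from 25.7, 29.3 and 24.3 to 43.3, 45.5 and 30.0 rescaled TPM, its partner chain *SLC3A2* from 37.7, 39.2 and 31.6 to 54.0, 56.3 and 40.6, and the cystine carrier *SLC7A11* from 3.97, 3.69 and 2.58 to 5.99, 7.66 and 3.73. In all 3 genes replicate 3 was the lowest of each group, and *SLC7A11* overlapped between groups. Of 10 genes of serine and one-carbon metabolism 9 lay above 0 (median 0.21, or 0.10 in the TPM as deposited). An unadjusted p under 0.05 was found for 5 of them, against the same 3.76%. *PHGDH*, the first enzyme of serine synthesis, stood at 11.6, 12.5 and 13.5 in DMSO and between 14.7 and 18.3 after IACS, with replicate 3 lowest (log2 fold change 0.41, SE 0.098, adjusted p = 0.491). *PSAT1*, the next enzyme, had a log2 fold change of 0.46, *MTHFD2*, the mitochondrial folate enzyme, 0.33, *SHMT2* 0.33 and *ALDH1L2* 0.29, with no overlap in any of the 4. Groups without overlap in this direction were found for 6.64% of all genes.

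*ASNS*, asparagine synthetase, had the largest log2 fold change among 13 genes of asparagine, aspartate and proline metabolism, 0.91 (SE 0.20, adjusted p = 0.491). Its level was low, at 1.61, 0.969 and 2.41 rescaled TPM in DMSO against 3.53, 4.61 and 3.59, and 50 to 120 reads lay behind the DMSO values. *GOT1* (0.34), *PCK2* (0.28) and *PYCR1* (0.23) were the other members with an unadjusted p under 0.05 by log2 fold change, and 9 of the 13 lay above 0. These members stand beside 3.76% of all genes that were higher at that p. The median of the list was 0.15, or 0.017 in the TPM as deposited. Cytosolic tRNA synthetases, which charge tRNAs, lay above 0 in 16 of 19 cases (median 0.16, or 0.029 in the TPM as deposited). At unadjusted p under 0.05, 9 of them were higher, again against 3.76% of all genes. Alanyl-tRNA synthetase (*AARS*) went from 82.6, 87.8 and 97.4 to 123, 121 and 103.

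**Figure D3:**
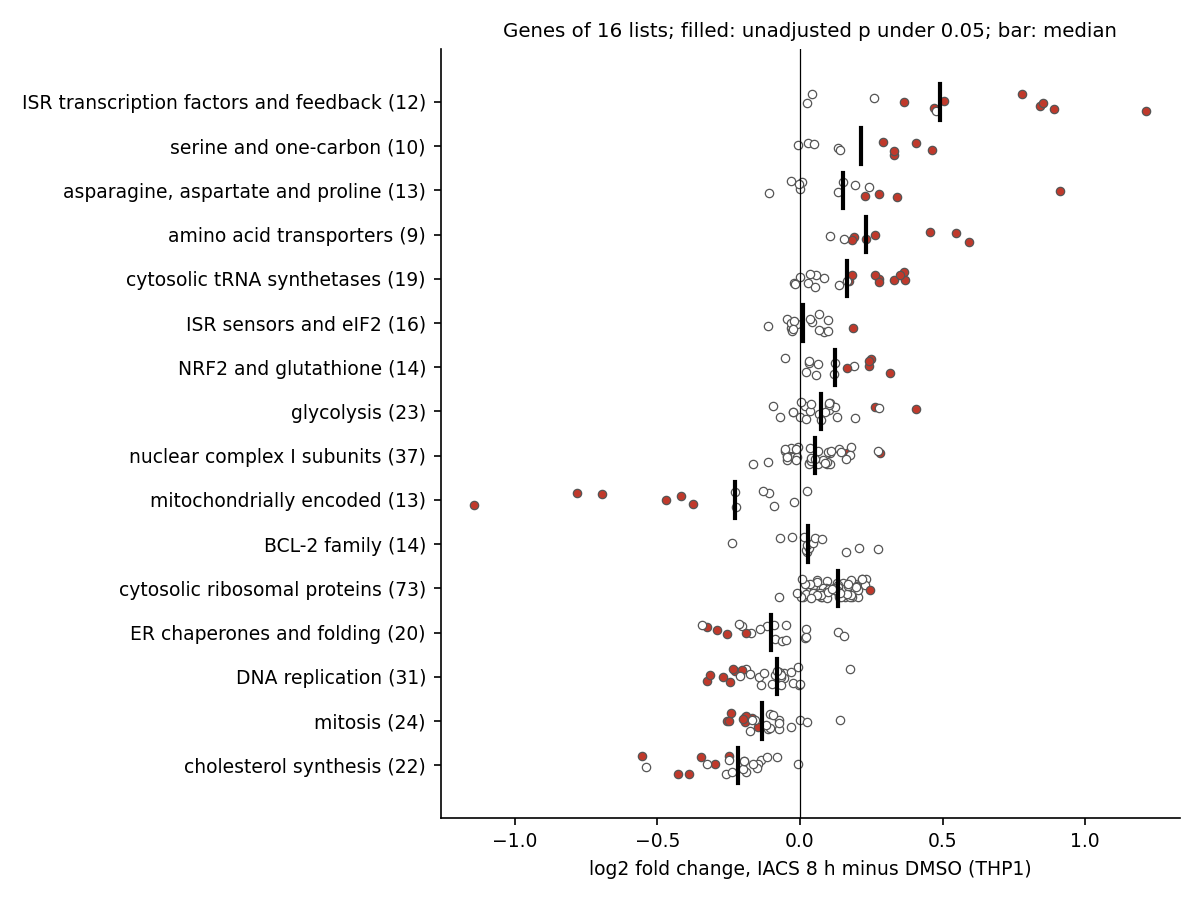
Log2 fold changes (IACS 8 h minus DMSO, THP1) of the genes of 16 lists, with the number tested in parentheses, filled points for an unadjusted p under 0.05 and a bar at each median. The ISR list has the highest median of those drawn, 0.49, and the mitochondrially encoded and cholesterol lists have the lowest, -0.23 and -0.22.

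Among transcripts of the mitochondrial genome 1 was called lower. Of the 13 protein-coding genes, 12 had a log2 fold change below 0 (median -0.23), and *MT-ATP8* was the one called. An unadjusted p under 0.05 was found for 6 of them, against 3.84% of all genes in that direction. The other 7 had an unadjusted p of 0.109 or more, and *MT-ND4* lay above 0. The summed share of the 13 in the TPM as deposited, without rescaling, was 1.60 ± 0.12% in DMSO and 1.20 ± 0.092% after IACS (SD, n = 3). These shares did not overlap between groups, with p = 0.10 by two-sided exact permutation test, the smallest that 3 against 3 libraries allow. The separation does not hold after division by the library factors. IACS replicate 3 (1.18%, factor 0.821) then no longer lies below DMSO replicate 2 (1.56%, factor 1.09). *MT-ATP8* (chrM:8366-8572), a subunit of ATP synthase, stood at 115, 121 and 121 rescaled TPM in DMSO and at 72.3, 66.6 and 67.6 after IACS, 1.73 times lower, and the log2 fold change was -0.78 (SE 0.061, adjusted p = 0.0117 by limma). This call rested on 143 to 264 reads per library, and it was lost on leaving out any single library but DMSO replicate 3 (adjusted p from 0.0771 to 0.174), with both libraries numbered 3 left out (0.0685), with voom on the recovered reads (0.0804), with all 9 THP1 libraries in 1 fit (0.571), in the fit blocked on replicate number (0.0891) and in the TPM as deposited (0.470), where the log2 fold change was -0.92. The gene is short and shares bases with *MT-ATP6*, so reads of the pair cannot be cleanly divided, and *MT-ATP6*, another ATP synthase subunit, went from 506, 526 and 632 to 426, 395 and 458 (log2 fold change -0.37, adjusted p = 0.609).

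The other members with an unadjusted p under 0.05 were *MT-ND6*, *MT-ND3*, *MT-CO3*, *MT-CO2* and *MT-ATP6*, all without overlap between groups. Of all genes, 6.55% were lower without overlap. *MT-ND6*, the complex I subunit encoded on the light strand, went from 35.8, 47.2 and 25.0 to 15.2, 13.8 and 16.9 (log2 fold change -1.14, SE 0.20, adjusted p = 0.398). The gene was called where libraries were weighted by quality (adjusted p = 0.0475), in a fit that did not fully converge. It lies opposite heavy-strand transcripts, and whether reads were counted by strand is not given in the sources used here. *MT-ND3*, also of complex I, went from 645, 474 and 713 to 337, 405 and 374 (-0.70). *MT-CO2* (-0.42) and *MT-CO3* (-0.47) encode subunits of complex IV. *MT-ND1*, the subunit where IACS is known to bind, measured 470, 485 and 536 in DMSO and 408, 367 and 510 after IACS, so that IACS replicate 3 lay within the DMSO range (log2 fold change -0.23, adjusted p = 0.766). The nuclear complex I subunits did not follow: 24 of 37 lay above 0 (median 0.05), with *NDUFS7* at 0.28 having the smallest p of the list (adjusted p = 0.492).

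**Figure D4:**
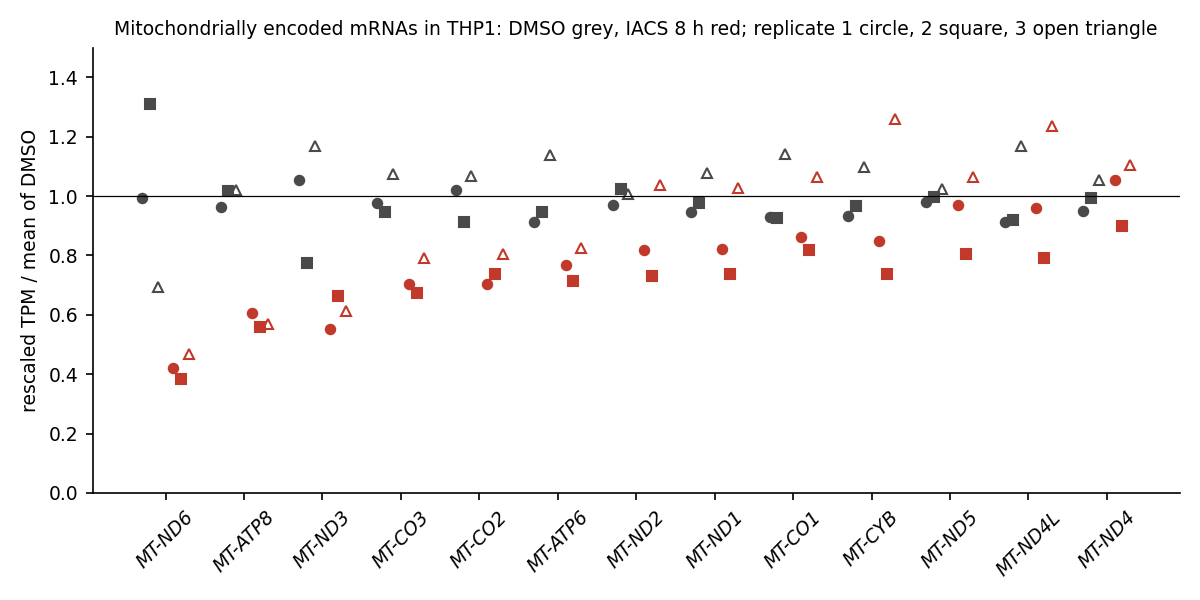
Rescaled TPM of the 13 mitochondrially encoded mRNAs in each THP1 library divided by the DMSO mean of the gene (axis from 0), with DMSO in grey, IACS 8 h in red and symbols for replicates. The 6 genes at the left do not overlap between groups, and in the other 7 IACS replicate 3 lies above 1 while IACS replicate 2 is the lowest treated library.

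No sterol or cell division gene was called. All 22 cholesterol synthesis genes tested had a log2 fold change below 0 (median -0.22), 6 at unadjusted p under 0.05 and none called. *SQLE*, squalene epoxidase, had the smallest p of the list: it went from 45.1, 47.1 and 49.7 rescaled TPM to 36.0, 35.6 and 36.0 (log2 fold change -0.39, SE 0.058, adjusted p = 0.373). *IDI1* (-0.43), *HMGCS1* (-0.35) and *CYP51A1* (-0.30) had no overlap either. Of 31 DNA replication genes 30 lay below 0 (median -0.08), 7 at unadjusted p under 0.05, among them cyclin E2 (*CCNE2*, -0.32) and the origin licensing factor *CDC6* (-0.32). Of 24 mitosis genes 22 lay below 0 (median -0.13), 9 at unadjusted p under 0.05, with the centromeric histone *CENPA* at -0.26 and the kinesins *KIF11* at -0.25 and *KIF20A* at -0.24. The counts at unadjusted p in these lists stand beside 3.84% of all genes that were lower at that p. All these log2 fold changes are small beside the fold threshold. The counts of signs refer to rescaled values, since the median of all genes is -0.12 in the TPM as deposited.

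No gene of the other lists was called. Chaperones of the endoplasmic reticulum, which fold secreted proteins, lay below 0 in 15 of 20 cases (median -0.10), with the main ER chaperone *HSPA5* (BiP) at 234, 247 and 205 in DMSO and 207, 198 and 158 after IACS and *DNAJC3* at -0.19. NRF2 and glutathione genes lay above 0 in 13 of 14 cases (median 0.12, or -0.014 in the TPM as deposited). Of these, 5 had an unadjusted p under 0.05, among them *GCLC* (0.31), *GSR* (0.24) and *SRXN1* (0.25), against 3.76% of all genes. Glycolysis genes lay above 0 in 19 of 23 (median 0.07, or -0.053 in the TPM as deposited). An unadjusted p under 0.05 was found for 2 of the 23, both higher, too few to compare with the 3.76% of all genes. The glucose transporter *SLC2A1* went from 76.6, 84.1 and 79.5 to 103, 93.3 and 93.3, and hexokinase 2 (*HK2*) from 12.2, 12.9 and 10.1 to 18.5, 16.6 and 12.9. *ALAS1*, the first enzyme of heme synthesis, went from 44.4, 47.3 and 56.9 to 72.3, 71.3 and 64.0 (log2 fold change 0.48, adjusted p = 0.491). Cytosolic ribosomal protein genes lay above 0 in 71 of 73 (median 0.13), and this median is -0.003 in the TPM as deposited. Only 1 of the 73 was higher at unadjusted p under 0.05, against 3.76% of all genes. No BCL-2 family gene of the 14 tested had an unadjusted p under 0.05, and *MCL1* measured 131, 133 and 130 in DMSO and 134, 118 and 124 after IACS (log2 fold change -0.07, SE 0.07).

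Among genes of at least 5 TPM without overlap and with an unadjusted p under 0.05, the highest log2 fold changes were those of *RNU12* (0.97), *AL355075.4* (0.91), *TRIB3*, *SESN2*, *DDIT3*, *RN7SL517P* (0.68), *MSC* (0.65) and *SNORA74A* (0.59), and the lowest were those of *TXNIP*, *ARRDC4*, *MT-ND6*, *AL606500.1* (-0.90), *MT-ATP8*, *KLF10*, *MT-ND3* and *AC084082.1* (-0.55). *RNU12*, a minor spliceosome RNA, stood at 8.44, 6.96 and 7.88 in DMSO and 13.9, 9.64 and 30.7 after IACS, so its mean rested largely on IACS replicate 3. Such small RNAs are poorly kept in poly(A) libraries and have near-identical copies, and their values are uncertain. *MSC* (musculin), a repressor of the bHLH family, was even by comparison, with DMSO at 8.96 ± 0.98 and IACS at 14.7 ± 1.79. Below 5 TPM, *KLF15*, a Krüppel-like factor that promotes amino acid breakdown, had the smallest adjusted p of the genes not called, 0.147: 56, 68 and 47 reads lay behind its DMSO values and 180, 154 and 140 behind the treated ones, with a mean 2.54 times higher (log2 fold change 1.01, SE 0.12). *FHL2*, a LIM-domain cofactor, was 1.77 times higher, at 5.90 ± 0.031 against 3.33 ± 0.38 (log2 fold change 0.68, adjusted p = 0.241). Both were called where all 9 THP1 libraries entered 1 fit (adjusted p = 0.0495 for each) and where libraries were weighted by quality (0.0312 for each). The weighted fit did not fully converge.

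The 8 h response of THP1 was then set beside that of MV4-11, and the difference was tested as an interaction over the 12 libraries. limma called no gene among 14042, with 29 higher and 114 lower in THP1 at unadjusted p and fold, and voom on the recovered reads called 1. *TXNIP* had the smallest adjusted p: in MV4-11 it went from 104, 101 and 135 rescaled TPM to 71.4, 65.1 and 69.9, a log2 fold change of -0.70 (SE 0.11), which is 1.79 less in size than in THP1 (difference -1.79, SE 0.25, adjusted p = 0.144). The gene called by voom was *TXNIP*, and 5 of the other settings called it as well. *ARRDC4* had a log2 fold change of -0.77 in MV4-11 (difference -0.49, SE 0.12, adjusted p = 0.633). *ARRDC3*, flat in THP1, went from 6.10, 5.86 and 7.19 to 10.9, 11.6 and 10.3 in MV4-11 (0.70, difference -0.58, SE 0.12, adjusted p = 0.633). *CHAC1* had 1.43 in MV4-11 against 1.21, *ASNS* 0.84 against 0.91, *TRIB3* 0.71 against 0.89 and *PHGDH* 0.96 against 0.41, and none of these differences was called. *KLF15* and *NR1D2* were the next in order after *TXNIP*, with differences of 0.92 and 0.57 (adjusted p = 0.271 for each), and *KLF15* was under 1 TPM in MV4-11. A missed call does not show that the lines respond alike.

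**Figure D5:**
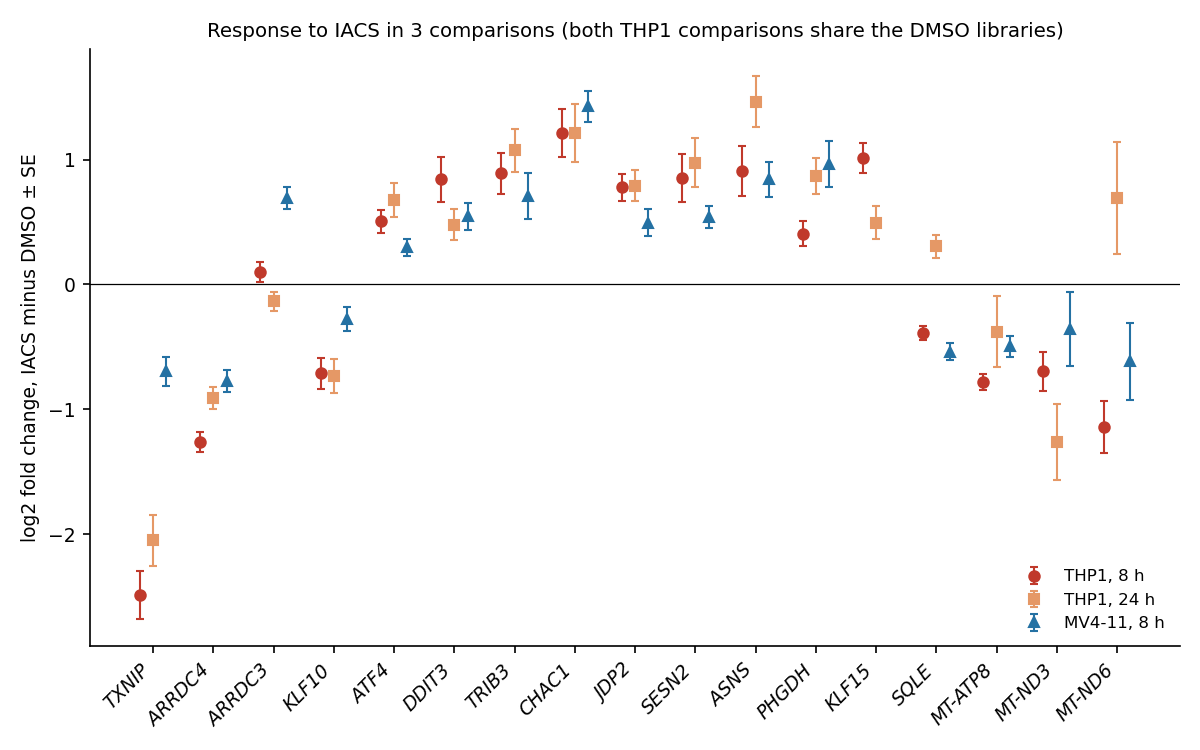
Log2 fold change (IACS minus DMSO) with its SE for 17 genes in THP1 at 8 h, THP1 at 24 h and MV4-11 at 8 h, each from its own fit over 6 libraries. *TXNIP* is at -2.49, -2.05 and -0.70, *SQLE* is below 0 at 8 h in both lines and above 0 at 24 h, and *KLF15* has no MV4-11 point because it was under 1 TPM there.

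At 24 h, THP1 was compared with THP1 at 8 h directly, without the shared DMSO libraries. The levels printed for 24 h and for 8 h were each rescaled together with the DMSO libraries, in separate fits. They are therefore not on exactly the same scale as each other or as the tested differences. limma called no gene among 13853, with 103 higher and 67 lower at 24 h by unadjusted p and fold. This count depended on the method: voom called 40 higher and 51 lower, and a fit of all 9 THP1 libraries called 33 and 35. Blocking on replicate number, since same-numbered 8 h and 24 h libraries deviated together, limma called 76 higher and 54 lower. *FHL2* had the smallest adjusted p: its mean of 5.90 at 8 h stood against 2.84, 2.66 and 2.65 rescaled TPM at 24 h (24 h minus 8 h -0.88, SE 0.08, adjusted p = 0.0546), and it was called lower with the block (adjusted p = 0.0204). *SQLE* was at 56.7, 53.1 and 66.8 at 24 h, above all 3 of its 8 h libraries (0.69, SE 0.09, adjusted p = 0.0567), and was called higher with the block (0.0214). *TXNIP* stayed low, at 42.4, 37.8 and 58.9 (24 h minus 8 h 0.44, SE 0.18, adjusted p = 0.234), and *ARRDC4* was at 8.56, 7.44 and 7.24 (0.35, SE 0.09, adjusted p = 0.0971). *ASNS* went on to 7.43, 5.86 and 5.36 (0.55, SE 0.13, adjusted p = 0.0868) and *PHGDH* to 26.8, 27.0 and 18.4 (0.46, SE 0.15, adjusted p = 0.157), while *DDIT3* was at 48.1, 39.7 and 33.0 (-0.36, SE 0.21, adjusted p = 0.368). With the block, limma's adjusted p was 0.0214 for *TXNIP*, 0.0341 for *ARRDC4*, 0.0494 for *ASNS*, 0.0247 for *PHGDH* and 0.0696 for *DDIT3*, at the same log2 fold changes. None of these last 5 genes was called, since none passed the fold threshold, with the block or without it. Fewer cells of a kind and less RNA per cell cannot be told apart in such bulk libraries, at either time.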

How the data were processed

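RNA of THP1 and MV4-11 cells given DMSO or 50 nM IACS was sequenced in 18 libraries, 3 per group. Per the study's methods, the authors trimmed paired reads, aligned them to GRCh38 with CLC Genomics Workbench 20 and deposited 1 table of TPM per gene symbol, with length and library total divided out. The counting of strands and of reads with several matches is not given in the sources used here. From these TPM, genes averaging 1 TPM or more in a fit were kept, rescaled by the median of ratios, and tested on log2(TPM + 1) with limma 3.58.1 (lmFit, eBayes with trend) in R 4.3.3, with groups from the labels and no covariates. Calls needed p under 0.05 after Benjamini-Hochberg adjustment and more than 1.5-fold on this scale. SDs are over 3 libraries of rescaled TPM. limma's p-values set the group difference against the spread between these libraries, with the variance of each gene drawn toward a trend over all genes.

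Low TPM step by whole reads, so reads were recovered for 13874 of 13893 genes within 0.02 of a whole number, at the annotated exon length or the shortest length that fitted all libraries. Coordinates are GENCODE release 44 on GRCh38. Of 660 genes in 40 lists, 655 were found in the table, 18 under an older symbol. Scripts were tested on simulated data. The members, lists and tests were chosen with earlier results of these data known. The text names 14 fixed genes, called genes, the 8 highest and 8 lowest log2 fold changes described in the report, and up to 4 genes per list by smallest p. *ATF5*, *CEBPB*, *DDIT4*, *SHMT2*, *SLC7A11*, *ARRDC1*, *MLXIP*, *MT-ND1*, *MT-CO3*, *MT-ATP6*, *KLF15*, *FHL2*, *NR1D2*, *CIART*, *CIPC*, *BHLHE40*, *CLOCK* and *ARNTL* were named after their values were seen. Alternatives changed the scaling, pseudocount, filter, variance trend, weights, replicate block, test and libraries used. Same-numbered 8 h and 24 h THP1 libraries deviated together from their group means (correlations of 0.19, 0.30 and 0.34, the numbers coming from the labels), so the 24 h against 8 h comparison is also given with replicate number as a block. Chi-square per degree of freedom between replicates ran from 6.0 to 34.6, so no library was a copy of another.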

Additional observations from a re-analysis of the deposited data

How the results depend on the processing

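With median-of-ratios scaling, limma called 0 genes higher and 3 lower at 8 h, 0 for the difference from MV4-11 and 0 between 24 h and 8 h. Upper-quartile scaling and a pseudocount of 0.1 TPM gave these counts again. In the same order, the TPM as deposited gave 0, 2, 1 and 9, no filter on low values 0, 4, 2 and 2, a mean of at least 10 TPM 0, 3, 1 and 39, no variance trend 0, 3, 0 and 1, library quality weights 6, 4, 8 and 266, all THP1 libraries (or all libraries) in 1 fit 2, 2, 0 and 68, and unadjusted p 32, 44, 143 and 170. Kruskal-Wallis with Dunn tests, which ranked all 9 THP1 libraries together, gave 1 higher, 5 lower and 19 between times. Added after seeing the data, voom on recovered reads gave 0, 2, 1 and 91, and leaving out both libraries numbered 3 gave 2 higher and 2 lower. Leaving out 1 library at a time gave 0 to 1 higher, 0 to 4 lower, 0 to 1 for the difference and 0 to 27 between times, where 24 h replicates 2 and 3 left 27 and 14. The fit with quality weights did not fully converge. The cause of these shifts was not tested. *TXNIP* missed the threshold without the filter (adjusted p = 0.0606).

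With replicate number as a block (replicate block) the counts were 0, 2, 1 and 130, and with the block on TPM as deposited 29, 111, 5 and 165. Same-numbered THP1 DMSO and 8 h libraries deviated from their group means with correlations of 0.03, 0.18 and 0.47, and DMSO replicate 1 correlated best with IACS replicate 2 (0.39). In MV4-11 these were 0.009, 0.086 and 0.20. The numbers were therefore not taken as pairs in either 8 h comparison.

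Of 82 named genes under 18 settings, 1398 values kept direction and side of the threshold, 18 lost a call, 31 gained one and 7 turned sign: *ARRDC3* to -0.029, *DELE1* to -0.065 and *EIF2AK1* to -0.091 in the TPM as deposited, with or without the block, and *EIF2AK1* to -0.011 without THP1 DMSO replicate 1 (0.086 without DMSO replicate 3). Depth limits *CHAC1*, *ADM2*, *ASNS* and *KLF15* most, and intervals from reads would cover counting error only.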

Other observations

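Genes of the circadian clock were a list added after the values were seen and so given without a test. Of 16 tested, 3 were higher and 1 was lower at an unadjusted p under 0.05, against 3.76% and 3.84% of all genes. Since the list was picked with the values known, this count does not show a response of the clock. *NR1D2* (REV-ERBβ), a repressor within the clock, was at 5.03, 4.41 and 4.80 rescaled TPM in DMSO and at 6.98, 7.29 and 6.42 after 8 h of IACS (log2 fold change 0.46, limma adjusted p = 0.398). *CIPC*, which binds CLOCK, was at 7.45, 7.47 and 8.02 and then at 9.67, 10.7 and 10.4 (0.38). *BHLHE40* (DEC1), a repressor of clock targets, was at 3.66, 4.65 and 4.88 and then at 6.02, 4.75 and 6.03, with overlap between groups (0.29, adjusted p = 0.654). *CIART*, a further repressor, went the other way, from 5.74, 5.60 and 5.29 to 3.18, 4.06 and 3.23 (-0.55). The median log2 fold change of the 16 genes was 0.04, and *CLOCK* and *ARNTL* (BMAL1) were at -0.001 and 0.04. The time of day at which the DMSO cells were collected is not given by the labels.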
